A study of Homo sapiens with 14 samples.

Results

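The genes described here encode the machinery that takes human mRNA apart. They are 53 of the 57820 annotated genes in the tables, and they were chosen by name: 11 subunits of the CCR4-NOT complex, the other deadenylases PAN2-PAN3 and PARN, 3 BTG and TOB proteins, 9 genes of decapping and the exonuclease XRN1, 7 LSM proteins, 9 core subunits of the RNA exosome, the exosome nucleases EXOSC10, DIS3 and DIS3L with their relative DIS3L2, which works without the exosome, and 7 factors of nonsense-mediated decay. Polyadenylated RNA of HEK293T, a line derived from human embryonic kidney, was sequenced in 14 libraries of 2 experiments with 2 libraries per group. In the conversion experiment, s4U-acrylonitrile-RNA came from cells given 4-thiouridine (s4U), a uridine analogue that enters RNA as it is made, for 24 h, followed by acrylonitrile treatment of the isolated RNA. Con-acrylonitrile-RNA had acrylonitrile without s4U, s4U-RNA had s4U without acrylonitrile, and Con-RNA had neither. The protocol gives 50 µM s4U, whereas the label of the s4U-acrylonitrile-RNA samples gives 500 µM. In the PDP experiment, cells received 0, 4 or 8 µM PDP, a ligand that stabilizes G-quadruplexes, 20 min before 1 h of 500 µM s4U, and all 3 groups share the labeling. Acrylonitrile makes s4U pair as cytidine, so that a fragment of newly made RNA carries T-to-C mismatches. A fragment with at least 1 mismatch is called marked in the conversion experiment and labeled in the PDP experiment. Nothing in the labels says that the libraries of a group came from separate cultures, so p-values measure only the spread between these libraries, which may be technical.

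Most cytoplasmic mRNAs are degraded after the poly(A) tail is shortened. PAN2-PAN3 and CCR4-NOT remove the tail, BTG and TOB proteins recruit CCR4-NOT to mRNA, the LSM1-7 ring and PATL1 bind the shortened end, and DCP2 with its partners cuts off the cap so that XRN1 can digest the body in the 5′ to 3′ direction. The exosome degrades RNA in the other direction, and UPF and SMG proteins direct mRNAs with premature stop codons into decay.

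The libraries of the conversion experiment held 6074118 to 17228999 fragments and those of the PDP experiment 9770956 to 22363992. The 0 µM PDP libraries were the shallowest of their experiment, with 82.6% and 83.0% of fragments in annotated genes, whereas the share was 86.5% to 89.7% in the libraries with PDP. VIM, a marker of the line, was present in every PDP library, at 510.1 to 591.1 FPM (fragments scaled by the authors to a common library size), and the blood cell markers PTPRC, CD3E and HBB were at 0 in all 6.

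After 24 h of s4U, most fragments of the decay machinery were marked, as were those of genes at large. The median gene had 93.1% of its fragments marked in s4U-acrylonitrile-RNA, and 38 of the 53 genes were above 90%. Over the 12068 protein-coding genes with at least 20 fragments in both libraries the median was 91.4%, and 59.1% of them were above 90%. The share in Con-acrylonitrile-RNA, pooled over its 2 libraries, ran from 3.08% to 17.8% with a median of 7.16%. In 53 of 53 genes both s4U-acrylonitrile-RNA libraries were above all 6 others, as they were in 99.6% of all protein-coding genes measured.

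**Figure D1:**
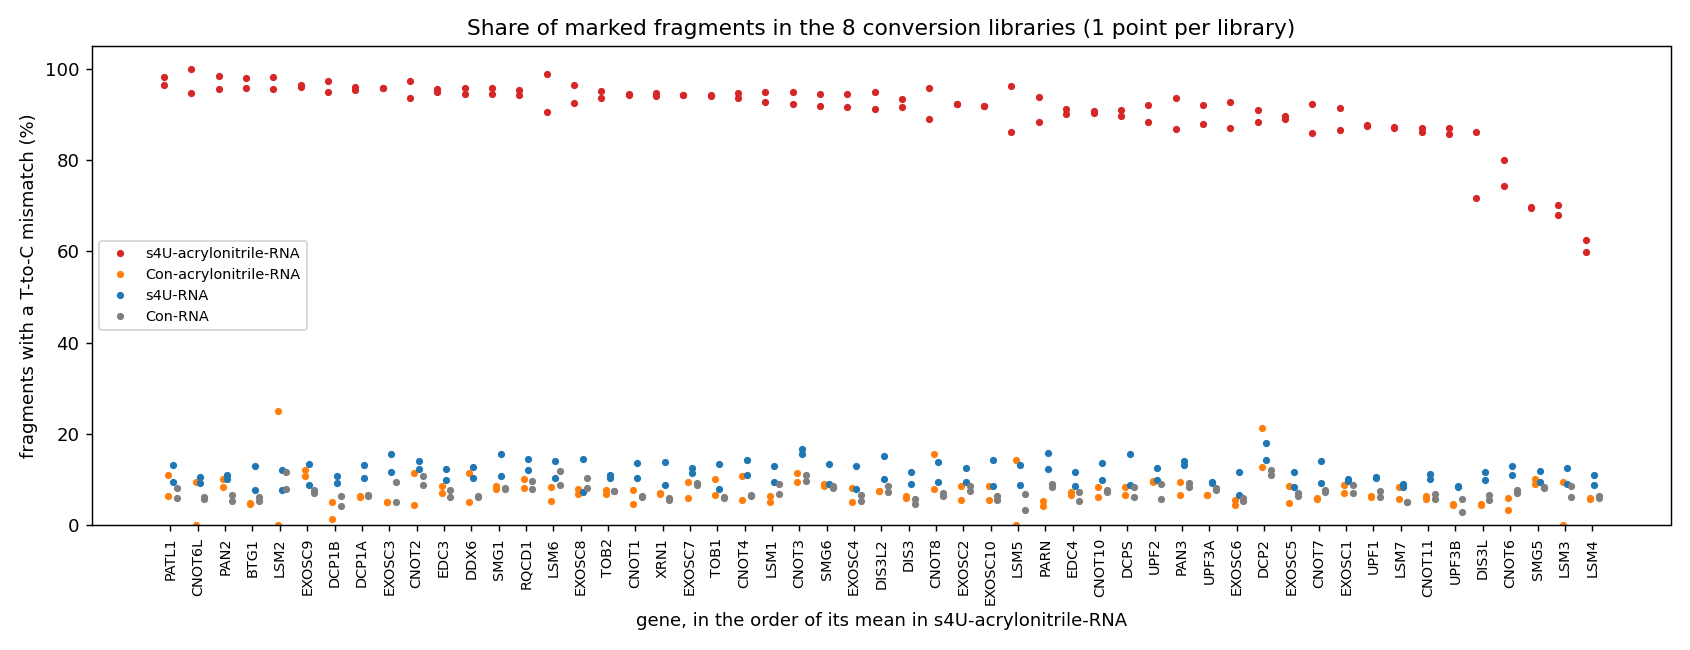
Marked share (%) of each of the 53 genes in the 8 conversion libraries, 1 point per library. The s4U-acrylonitrile-RNA libraries sit above the other 6 for every gene, and LSM4, LSM3 and SMG5 are the lowest, with means of 61.1%, 69.0% and 69.7%.

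A few genes had a large share of unmarked fragments. LSM4, a subunit of the LSM rings, had 62.4% and 59.8% of its fragments marked in s4U-acrylonitrile-RNA, against 5.82% and 5.87% in Con-acrylonitrile-RNA. SMG5, which promotes dephosphorylation of UPF1, had 69.8% and 69.5%, against 8.98% and 10.2%. The libraries of each pair lay close together for both genes, far from the median. LSM3 had 70.1% and 67.9% marked in s4U-acrylonitrile-RNA. The deadenylase CNOT6 had 80.1% and 74.3%, and the exosome nuclease DIS3L had 86.1% and 71.7%. DIS3L differed most between the libraries, with an SD of 10.2 percentage points, from 72 and 46 fragments. At the other end stood PATL1, CNOT6L, PAN2, BTG1 and LSM2, with means of 97.4%, 97.4%, 96.9%, 96.9% and 96.9%. Of these, CNOT6L had only 54 and 38 fragments and LSM2 53 and 46. The 95% Wilson interval of CNOT6L in the second library was 82.7% to 98.5%, so its rank is uncertain. The marked share after 24 h and the labeled share after 1 h without PDP were only loosely related across the 53 genes, which share libraries and are no independent replicates (Spearman's rho = 0.28, Pearson's r = 0.26).

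Half-lives were computed from the labeled share of the 0 µM PDP libraries after 1 h. The median over the 53 genes was 3.36 h, and over 12811 protein-coding genes it was 3.17 h. The difference was smaller than the SD of 0.475 h between the medians of the 53 genes in the 2 libraries. The same libraries gave the median over all protein-coding genes, so this SD does not measure the spread of the difference. The 3 BTG and TOB genes had the shortest half-lives of the machinery. TOB2 had 0.862 h in both libraries, and 2.79% of protein-coding genes were shorter. TOB1 had 0.958 and 1.04 h, and BTG1 had 1.23 and 1.51 h. These antiproliferative proteins bridge CCR4-NOT to mRNA-binding proteins. CNOT4, a ubiquitin ligase that associates with CCR4-NOT, followed with 1.32 and 1.69 h, and LSM6 with 1.67 and 1.36 h.

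The 5 longest half-lives came from several complexes, with CNOT7 and CNOT1 both from CCR4-NOT. EDC4, the scaffold of the decapping complex, had 7.23 and 7.75 h. UPF3B, which links UPF2 to the exon junction complex, had 7.61 and 5.85 h. CNOT7, EXOSC5 and CNOT1, the scaffold of CCR4-NOT, averaged 6.10 ± 1.66, 5.70 ± 0.49 and 5.59 ± 0.02 h (SD, n = 2 each). LSM4, SMG5 and LSM3, the least marked after 24 h, averaged 4.64, 4.38 and 3.02 h and were not among these 5. What sets the 2 measures apart was not tested. The group medians ran from 0.998 h for the BTG and TOB genes to 3.81 h for EXOSC10 and the DIS3 family. The background share of a gene weighs most on these long values. With each gene's own share in Con-acrylonitrile-RNA subtracted, the median over the 53 genes became 5.70 h, EDC4 averaged 34.2 h and TOB2 0.951 h. LSM2, LSM3 and LSM5 had 3 to 12 labeled fragments per 0 µM library, and the labeled share of LSM5 was 31.6% (95% Wilson interval 15.4% to 54.0%) and 17.6% (6.19% to 41.03%). These intervals cover counting error only.

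The PDP experiment asked which RNAs change soon after a G-quadruplex ligand is added. In total RNA, 37 of the 53 genes rose and 3 fell at 4 µM PDP, and 36 rose and 4 fell at 8 µM (edgeR quasi-likelihood test, Benjamini-Hochberg adjusted p under 0.05 over 15473 genes). Of all genes tested, 58.3% were called at 4 µM, with 51.4% higher and 6.99% lower, and 60.5% at 8 µM, with 51.8% higher and 8.71% lower. With the authors' library sizes the median of all genes was itself 0.32 and 0.33 on the log2 scale, and the median of the 53 genes was 0.47 at both doses. With TMM scaling, which removes that shift, 25 rose and 13 fell at 4 µM, and 24 rose and 13 fell at 8 µM. Of all 15473 genes, TMM scaling called 3902 higher and 4049 lower at 4 µM, and 4143 higher and 4178 lower at 8 µM. The depth and the share of fragments in genes moved with PDP as given above, and their part in these changes was not tested. In bulk RNA, fewer cells and less RNA per cell cannot be told apart.

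The largest rises in total RNA were of XRN1, CNOT4 and LSM5. XRN1, the cytoplasmic 5′ to 3′ exonuclease, had 5.63 and 5.68 FPM at 0 µM, 15.3 and 13.4 at 4 µM, and 15.6 and 14.9 at 8 µM. It was higher in all 4 PDP libraries, with a log2 fold change of 1.43 ± 0.15 (SE) at 8 µM, or 1.11 above the median of all genes (adjusted p = 6.14e-10). CNOT4 had 10.5 and 11.5 FPM at 0 µM, 26.5 and 23.3 at 4 µM, and 27.6 and 23.5 at 8 µM. LSM5 rose by 1.12 ± 0.28 at 8 µM from few fragments, and its call was lost with DESeq2 (adjusted p = 0.0822). LSM3, LSM6, EXOSC8, the helicase DDX6 and the decapping enzyme DCP2 rose by 1.00 to 1.06 at 8 µM. Of the 9 decapping and XRN1 genes, 8 rose at each dose and none fell (DCPS was not called with TMM scaling or DESeq2 at 8 µM), EDC4 being the exception with a log2 fold change of -0.06 at 8 µM. EXOSC10, DIS3, DIS3L and DIS3L2 rose at both doses with the authors' library sizes, by 0.32 to 0.40 at 8 µM, where the median of all genes was 0.33, and at 8 µM none of them was called with TMM scaling or DESeq2.

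Of the CCR4-NOT subunits, CNOT4, CNOT1 and CNOT2 rose most at 8 µM. CNOT1 had 86.2 and 80.9 FPM at 0 µM, 179.1 and 158.7 at 4 µM, and 170.9 and 161.3 at 8 µM, so that every PDP library exceeded both 0 µM libraries, with a log2 fold change of 0.99 ± 0.07 at 8 µM (adjusted p = 1.38e-14). PARN had 12.6 and 15.3 FPM at 0 µM, 31.1 and 25.0 at 4 µM, and 28.8 and 24.4 at 8 µM. Of the 11 CCR4-NOT genes 7 rose and 1 fell at each dose, and of the 7 nonsense-mediated decay genes 5 rose at 4 µM and 4 at 8 µM.

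EXOSC6, a core subunit of the exosome, fell most in total RNA. It had 181.8 and 173.9 FPM at 0 µM, 128.4 and 136.6 at 4 µM, and 124.3 and 139.6 at 8 µM, so that the groups with and without PDP did not overlap. Its log2 fold change was -0.43 ± 0.06 at 8 µM (adjusted p = 1.58e-07). LSM4 fell by 0.29 and CNOT11 by 0.25 at 8 µM. LSM7 fell by 0.19 at 8 µM. With a GC content term for each library, the log2 fold changes of LSM4 and LSM7 were -0.041 and 0.065, and neither was called. EXOSC6 and CNOT11 fell at 8 µM under all of the main scaling, TMM, DESeq2 and the GC content term. Under the same 4, 18 genes rose, XRN1, PARN, DCP2 and DDX6 among them. The GC content used for EXOSC6 comes from a transcript longer than the gene as counted, so its value under that term is uncertain. No member passed the test between 8 and 4 µM in total RNA (0 of 53 in edgeR and in DESeq2, 5 at an unadjusted p under 0.05). Of all genes 0.323% were called, 0.233% higher and 0.0905% lower. Without the first 8 µM library some members passed, as did a larger share of all genes, but that group then kept 1 library.

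In labeled RNA, which holds RNA made during the hour with s4U and a background of mismatches, 8 genes rose and 10 fell at 4 µM, and 7 rose and 12 fell at 8 µM, of 52 genes tested; LSM2 was below the minimum of 0.5 labeled FPM. Of all 14124 genes tested, 29.2% were called at 4 µM, with 9.24% higher and 19.9% lower, and 37.8% at 8 µM, with 10.3% higher and 27.5% lower. The share of members called lower at 8 µM was thus near that of all genes. The 18 calls at 4 µM became 8 with DESeq2 and 9 with the GC content term, where 14.4% and 17.9% of all genes were called. Without either 0 µM library they were fewer too, as were the calls over all genes, but that group then kept 1 library. The falls at 8 µM were spread over the complexes: EXOSC6 and EXOSC4 of the exosome, LSM7 and LSM4, UPF1 and SMG5, CNOT3, CNOT11 and CNOT6, the decapping scaffold EDC4, and TOB2 and TOB1.

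**Figure D2:**
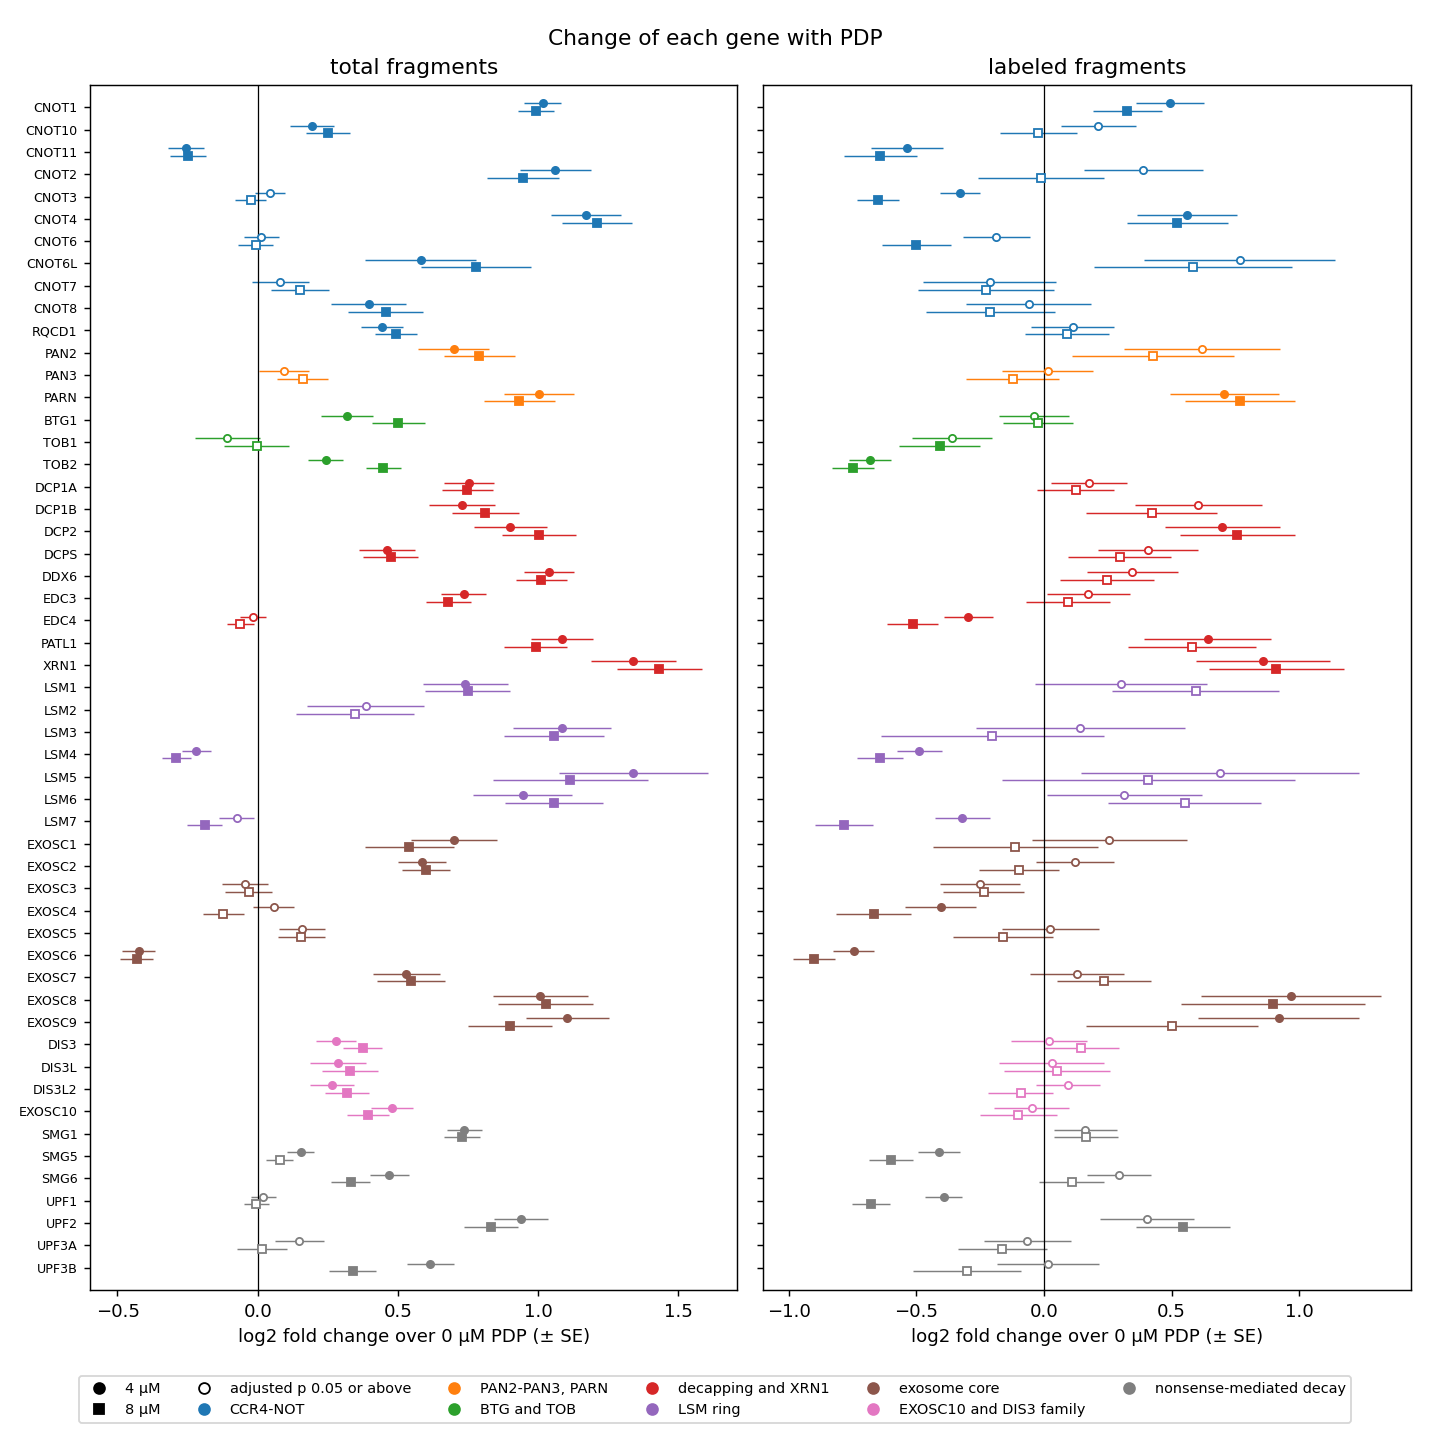
Log2 fold change (± SE) of total and labeled fragments at 4 µM (circles) and 8 µM PDP (squares) over 0 µM for each gene, 2 libraries per group, filled where the adjusted p was under 0.05 and coloured by complex. EXOSC6 is lowest in both panels at 8 µM (-0.43 in total and -0.90 in labeled fragments), and TOB2 is at 0.45 in total and -0.75 in labeled fragments.

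EXOSC6 had 57.2 and 52.1 labeled FPM at 0 µM, 31.3 and 33.8 at 4 µM, and 27.2 and 31.4 at 8 µM, a log2 fold change of -0.90 ± 0.08 at 8 µM (adjusted p = 1.64e-22). UPF1, the helicase at the centre of nonsense-mediated decay, had 66.8 and 71.9 labeled FPM at 0 µM, 52.9 and 52.9 at 4 µM, and 43.2 and 43.6 at 8 µM. The libraries of each dose lay close together, and no library at one dose overlapped another dose. The total RNA of UPF1 was 469.3 and 486.7 FPM at 0 µM, 471.7 and 497.9 at 4 µM, and 482.2 and 471.0 at 8 µM, a log2 fold change of -0.0042 ± 0.05 at 8 µM. CNOT3 had 47.6 and 50.9 labeled FPM at 0 µM, 41.5 and 37.0 at 4 µM, and 32.1 and 30.6 at 8 µM. LSM7 had 22.2 and 20.7 at 0 µM, 16.9 and 17.4 at 4 µM, and 13.2 and 11.6 at 8 µM. UPF1, CNOT3 and LSM7 were also the 3 of 52 members lower at 8 than at 4 µM, where 5.62% of all genes were called, 0.701% higher and 4.92% lower. Their log2 differences were -0.28, -0.32 and -0.46. TMM scaling gave 1 such call and DESeq2 0, where 1.24% and 0.276% of all genes were called.

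Further members fell in labeled RNA. LSM4 had 37.2 and 39.6 labeled FPM at 0 µM, 26.0 and 28.7 at 4 µM, and 24.8 and 24.3 at 8 µM (log2 fold change -0.64 ± 0.09 at 8 µM). SMG5 had 42.9 and 45.6 at 0 µM, 33.2 and 33.4 at 4 µM, and 30.3 and 28.1 at 8 µM. In both genes the 0 µM libraries lay above all PDP libraries. EXOSC4 had 12.1 and 11.3 at 0 µM, 8.25 and 9.36 at 4 µM, and 7.24 and 7.46 at 8 µM, but at 4 µM its log2 fold change of -0.40 became 0.017 with the GC content term, and that of CNOT3 at 4 µM became 0.00618. CNOT11, a subunit of CCR4-NOT, had 11.5 and 13.3 at 0 µM, 7.30 and 9.76 at 4 µM, and 7.65 and 8.27 at 8 µM. EDC4 had 29.0 and 27.3 at 0 µM, 23.2 and 22.5 at 4 µM, and 19.1 and 20.3 at 8 µM.

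Part of the labeled fragments is background, since 1 mismatch is enough for the label. At 8 µM the labeled share was at or under the gene's own share in Con-acrylonitrile-RNA in both libraries for 2 of the 53 genes. SMG5 had 9.21% and 9.09% at 8 µM, against 9.48% in Con-acrylonitrile-RNA. EDC4 had 6.19% and 6.77%, against 6.93%. For the other genes at least 1 library lay above it. The part of this background, measured in the other experiment, in the falls of labeled RNA was not tested.

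The rises in labeled RNA rested on fewer fragments. XRN1 had 1.94 and 1.89 labeled FPM at 0 µM, 3.74 and 3.22 at 4 µM, and 3.49 and 3.76 at 8 µM (log2 fold change 0.91 ± 0.26 at 8 µM, adjusted p = 0.00271). PARN, a poly(A)-specific ribonuclease, had 3.28 and 3.22 at 0 µM, 6.58 and 4.03 at 4 µM, and 5.32 and 5.77 at 8 µM. DCP2 had 2.97 and 2.84 at 0 µM, 4.51 and 4.93 at 4 µM, and 4.83 and 5.01 at 8 µM. In these 3 genes every PDP library was above both 0 µM libraries. EXOSC8, UPF2, CNOT4 and CNOT1 rose as well, by 0.90, 0.54, 0.52 and 0.33 at 8 µM. Only PARN rose at 8 µM under all of the main scaling, TMM, DESeq2 and the GC content term, whereas CNOT3, EXOSC6, LSM4, LSM7, SMG5, TOB2 and UPF1 fell under all 4. As in total RNA, the value of EXOSC6 under the GC content term is uncertain. With the GC content term, 1 of 51 members tested rose and 12 fell at 8 µM. Of all 13785 genes in that fit, 27.8% were called, 880 higher and 2953 lower.

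TOB2 lost the most labeled RNA relative to its pool. Its labeled share was 55.2% and 55.3% at 0 µM, 29.4% and 28.9% at 4 µM, and 22.9% and 25.4% at 8 µM. Its labeled RNA was 49.2 and 51.6 FPM at 0 µM, 31.7 and 31.3 at 4 µM, and 27.9 and 32.3 at 8 µM. Its total RNA was higher with PDP, with 89.1 and 93.3 FPM at 0 µM, 107.7 and 108.3 at 4 µM, and 122.1 and 127.1 at 8 µM (log2 fold change 0.45 ± 0.06 at 8 µM, or 0.12 above the median of all genes, adjusted p = 1.35e-07). With TMM scaling this rise was 0.15 (edgeR adjusted p = 0.0483), and with DESeq2 it was 0.13 and not called (adjusted p = 0.169). The relative TOB1, with a labeled share of 51.5% and 48.7% at 0 µM, had 39.7% and 44.5% at 4 µM and 35.0% and 40.7% at 8 µM, and BTG1 had 43.0% and 36.8%, 30.5% and 31.6%, and 29.2% and 26.1% at the 3 doses.

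**Figure D3:**
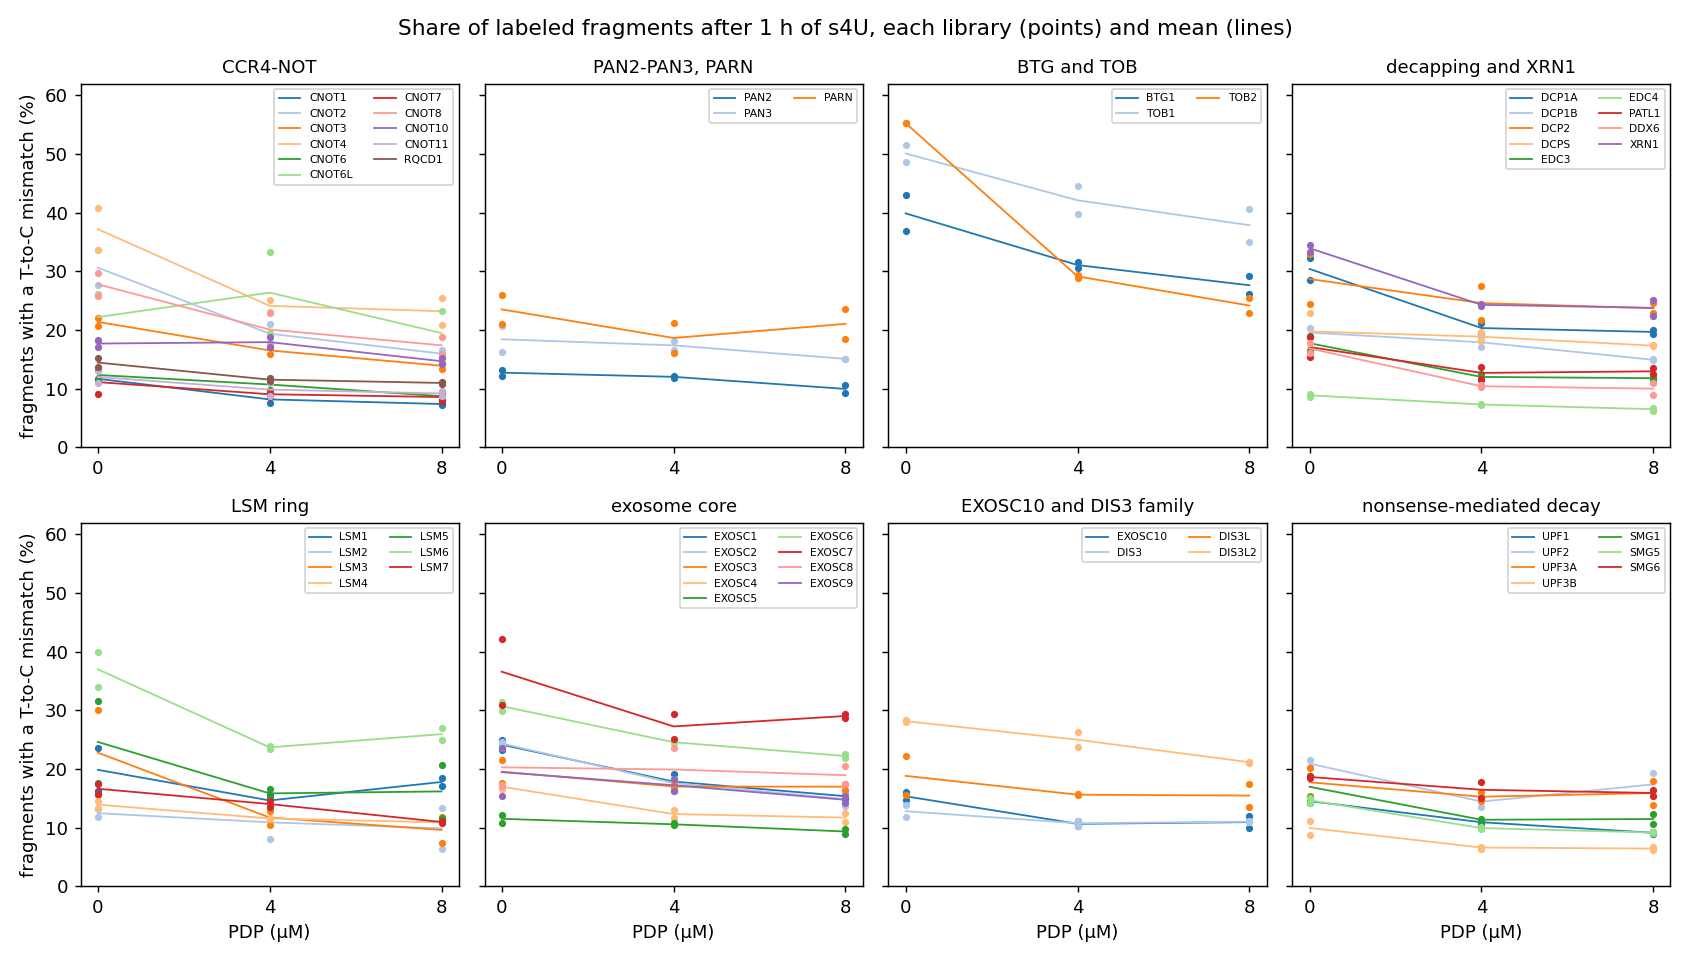
Share of labeled fragments (%) at 0, 4 and 8 µM PDP for each gene, by complex, with 1 point per library and a line through the means. TOB2 has the highest mean at 0 µM, 55.2%, and is at 24.2% at 8 µM, below TOB1 and BTG1.

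A drop of the labeled share was general. In 37 of 53 members both 0 µM libraries were above all 4 PDP libraries, as in 67.6% of protein-coding genes measured, and the median share of the 53 genes was 19.5%, 15.8% and 14.9% at 0, 4 and 8 µM. Set against the unlabeled fragments of the same libraries, labeled fragments at 8 µM fell in 28 of 52 members and rose in none, where 54.6% of all genes were called, 0.637% higher and 54% lower, and the median of all genes was -0.58. With TMM scaling 4 members fell and with DESeq2 1. Of all 14124 genes, 16.9% were called with TMM scaling (679 higher, 1703 lower) and 6.29% with DESeq2 (245 higher, 644 lower). TOB2 was the member called under each of these scalings. Its log2 change was -1.96 ± 0.10, or 1.37 below the median of all genes (adjusted p = 2.86e-41).

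Promoters were searched for the letters of a G-quadruplex motif, since PDP binds such structures: 4 runs of 3 or more G separated by loops of 1 to 7 bases, on both strands of the 300 bases from 250 before to 50 after the gene start (GRCh37). Such a motif was found in 16 of the 53 genes (30.2%) and in 5570 of 20345 protein-coding genes (27.4%). Of the 12 genes lower in labeled RNA at 8 µM, 3 held one, CNOT11, CNOT6 and TOB2, and of the 7 that were higher 1 did, CNOT4. The median log2 fold change of labeled RNA at 8 µM was 0.03 in the 16 genes with a motif and -0.02 in the 36 without. The motifs of these 4 genes are shown 5′ to 3′ on the strand that carries the G runs, which are in capitals. For CNOT11 the one nearest to the gene start is shown.
TOB2, chr22:41843121-41843145, plus strand: GGGccGGGGaccacctGGGGccGGG
CNOT11, chr2:101869177-101869197, minus strand: GGGGGcGGGGcccGGGaaGGG
CNOT6, chr5:179921238-179921261, plus strand: GGGGGtaaGGGGGcGGGGcctGGG
CNOT4, chr7:135194889-135194907, plus strand: GGGGcGGGGGaGGGGcGGG

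The window of 4000 bp downstream of genes, where RNA of unterminated transcription would lie, could be tested for 3 members, UPF1, EXOSC2 and DDX6. None was called at 8 µM (0 in edgeR and DESeq2, 0 at an unadjusted p under 0.05), where 25.9% of the 625 windows tested were, 19.2% higher and 6.72% lower. UPF1 had 4.20 and 3.03 FPM there at 0 µM, 2.88 and 3.76 at 4 µM, and 3.49 and 3.59 at 8 µM.

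The conversion experiment also asked whether acrylonitrile or s4U alone changes the measured levels. In unlabeled RNA, 13 of the 53 genes rose and 28 fell with acrylonitrile, where 59.8% of 18914 genes were called, 29.1% higher and 30.7% lower. In RNA from s4U-treated cells 9 rose and 30 fell, where 65.1% of all genes were called, 31% higher and 34.1% lower. The libraries with acrylonitrile had 68.4% to 70.9% of fragments in annotated genes, against 85.8% to 90.6% in those without. Con-acrylonitrile-RNA held 7778685 and 6074118 fragments, against 13102014 and 11860513 in Con-RNA. The part of depth and of the share in genes in these changes was not tested. EXOSC6 rose most, with 138.1 and 159.4 CPM (counts scaled by TMM to a common library size) in Con-acrylonitrile-RNA, against 31.9 and 29.2 in Con-RNA (log2 fold change 2.28 ± 0.19, adjusted p = 1.2e-05). DCP2 fell most, with 14.6 and 13.5 CPM in Con-acrylonitrile-RNA, against 88.5 and 97.4 in Con-RNA (-2.72 ± 0.16). CNOT6L, LSM5 and LSM3 followed with log2 fold changes of -2.54, -2.47 and -1.93. All 3 of PAN2, PAN3 and PARN fell in both comparisons, and 6 of the 9 decapping and XRN1 genes fell in unlabeled RNA.

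**Figure D4:**
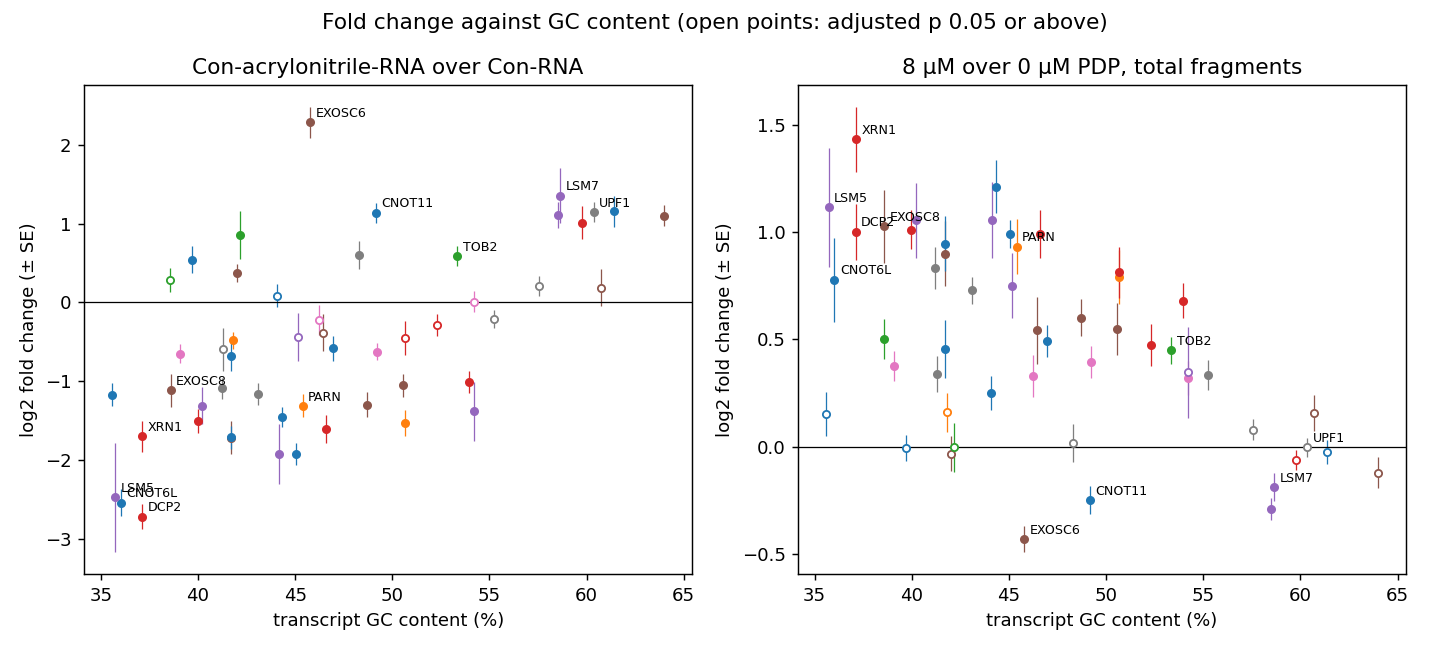
Log2 fold change (± SE) against the GC content of the transcript (%) for the 52 genes with a known transcript, for Con-acrylonitrile-RNA over Con-RNA and for 8 µM over 0 µM PDP in total fragments, coloured by complex and filled where the adjusted p was under 0.05. Fold changes are higher at high GC content for acrylonitrile (rho = 0.56) and lower for PDP (rho = -0.50).

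These fold changes followed the GC content of the transcripts. Across 52 members Spearman's rho with GC content was 0.56 for acrylonitrile in unlabeled RNA and -0.50 for total RNA at 8 µM PDP, and across all genes it was 0.71 and -0.58. Genes of one fit share libraries, so these are descriptions. With a GC content term for each library, 9 members rose and 22 fell with acrylonitrile in unlabeled RNA. In that fit 34.7% of 18237 genes were called, 2774 higher and 3558 lower. The log2 fold change of EXOSC4 was -0.26 in place of 1.10. The GC content of EXOSC6, 45.8%, comes from a later annotation's transcript of 5163 bases, longer than the gene as counted in the files, so its values under the GC content term are uncertain. The effect of acrylonitrile did not pass the test of a difference between s4U-labeled and unlabeled RNA for any member (0 of 53 in edgeR and DESeq2, 10 at an unadjusted p under 0.05, 1.64% of all genes called, 1.28% higher and 0.354% lower). Some members passed it without either s4U-RNA library, as did a larger share of all genes, but that group then kept 1 library.

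After 24 h of s4U without acrylonitrile, 34 members rose and 7 fell, where 70.5% of all genes were called, 35.8% higher and 34.7% lower. All 7 LSM genes rose. LSM3 had 109.0 and 55.4 CPM in s4U-RNA, against 15.3 and 15.9 in Con-RNA (log2 fold change 2.40 ± 0.27, adjusted p = 2.79e-05), and LSM7 had 351.3 and 133.4, against 55.9 and 54.7. The s4U-RNA libraries differed more from each other than the Con-RNA libraries did, but both lay above them. Of the exosome core 7 of 9 genes rose, EXOSC5 by 1.89. DIS3L fell most, with 7.05 and 5.86 CPM in s4U-RNA, against 33.8 and 32.4 in Con-RNA (-2.36 ± 0.20), followed by PARN with 16.9 and 16.1, against 50.2 and 51.6, and by CNOT11 at -1.07.

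Of 45 further decay genes tested 32 rose and 3 fell in total RNA at 8 µM PDP, and 5 rose and 14 fell in labeled RNA. Of all genes tested, 51.8% rose and 8.71% fell in total RNA, and 10.3% rose and 27.5% fell in labeled RNA. RBM7, a subunit of the nuclear exosome targeting complex, rose by 2.13 ± 0.64 (SE) in labeled RNA at 8 µM, and GIGYF1, a translational repressor, fell by 0.98 ± 0.08. With 24 h of s4U alone 26 rose and 6 fell, where 35.8% of all genes were higher and 34.7% lower.

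Fragments of EXOSC3, PAN2, EDC4, EXOSC7 and BTG1 lie where another gene overlaps on the same strand, and SMG1 has near-identical pseudogene copies, so the counts of these 6 genes are uncertain.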

How the data were processed

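RNA of HEK293T cells was sequenced in 8 libraries of the conversion experiment and 6 of the PDP experiment. Per the submitters' processing notes and the methods, the authors trimmed reads with cutadapt 1.18, kept 1 read of each identical group, removed rRNA and mapped proper pairs uniquely to GRCh37 with HISAT2 2.1.0, leaving out mismatches at polymorphisms or of low quality; the tool used for counting is not given in the sources. The deposited tables hold fragment counts per GENCODE v19 gene by number of mismatches, and total, labeled and window counts with FPM (a per-million value like RPM, which the authors scaled to all fragments of the library). The half-life tables repeat the 0 µM counts. Depth limits precision most for genes with few labeled fragments.

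Counts were tested with edgeR 4.0.16 (quasi-likelihood, adjusted p under 0.05 by Benjamini-Hochberg over all genes tested), with TMM in the conversion experiment and the authors' library sizes in the PDP experiment. The filters on mean FPM were 1 for total and 0.5 for labeled or downstream fragments. CPM are TMM-normalised. Marked shares needed 20 fragments per library. Half-life was -ln 2 × 1 h / ln(1 - labeled share). Alternatives used DESeq2 1.42.0, limma 3.58.1 on log2 FPM with pseudocounts of 0.1 and 1, other scalings and filters, each library left out, a replicate block, and a GC content term, which for PDP was added after seeing the data. Windows shared with a same-strand gene were not tested. The tests were tested on simulated data with planted changes. For acrylonitrile in unlabeled RNA, 68% of 2-fold and 24% of 1.5-fold changes were recovered. At 8 µM PDP these shares were 85% and 72% in total RNA, and 69% and 37% in labeled RNA. A gene that was not called may thus have changed. R 4.3.3, Python 3.11.15 and pandas 2.3.3 were used. The members and lists were chosen with earlier results of these data known. Named genes are, per comparison, up to 8 members with the largest rise and 8 with the largest fall among those called, the 5 highest and lowest shares and half-lives, members that stand for each complex, and up to 4 further decay genes.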

Additional observations from a re-analysis of the deposited data

How the results depend on the processing

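Each of the counts of called members was recomputed under other scalings, tools and filters and with each library left out. Of 1420 alternative values for 112 results of the members with the largest changes, 1295 kept direction and call, 118 kept direction but lost the call and 7 reversed. All 7 reversed with the GC content term: EXOSC4 to -0.26 and -0.42 with acrylonitrile in unlabeled and in s4U RNA, to 0.36 with s4U alone and to 0.017 at 4 µM PDP (labeled), UPF1 to -0.094 with acrylonitrile in s4U RNA, LSM7 to 0.065 at 8 µM PDP (total), and CNOT3 to 0.00618 at 4 µM PDP (labeled). At 4 µM PDP 18 members were called in labeled RNA, but 8 with DESeq2 and 9 with the GC content term. The 3 members lower at 8 than at 4 µM in labeled RNA became 1 with TMM scaling, 0 with DESeq2 and 1 with the GC content term, and the 28 of labeled against unlabeled fragments became 4 with TMM scaling and 1 with DESeq2. No filter on low counts gave 4 members for the acrylonitrile effect with against without s4U, where the main count was 0. Without that filter 4.31% of all genes were called, against 1.64% in the main fit. The cause was not tested. With 2 or more mismatches required, the median marked share was 80.9% in place of 93.1%, since fewer fragments then count as marked, and with the own background subtracted the median half-life was 5.70 h in place of 3.36 h.

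With each library left out, the count of members called ranged from 32 to 48 for acrylonitrile in unlabeled RNA, 36 to 43 in s4U RNA, 30 to 45 for s4U alone, 0 to 15 for the acrylonitrile effect with against without s4U, 34 to 40 and 38 to 41 in total RNA at 4 and 8 µM PDP, 0 to 5 for 8 against 4 µM in total RNA, 7 to 19 and 14 to 19 in labeled RNA at 4 and 8 µM, 2 to 4 for 8 against 4 µM in labeled RNA, and 24 to 29 for labeled against unlabeled fragments. At 4 µM in labeled RNA, 11 members were called without the first and 7 without the second 0 µM library. The median marked share ranged from 91.8% to 94.1% and the median half-life from 3.04 to 3.71 h. Where a group keeps 1 library, it is assumed to vary like the others. The share of all genes called also changed from fit to fit.

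The labels give groups the same replicate numbers, but correlations of same-numbered deviations were between -0.04 and 0.22, so the numbers were not taken as pairs. With the replicate block, 41, 40 and 41 members were called for acrylonitrile in unlabeled RNA, in s4U RNA and for s4U alone, 40 in total RNA at each PDP dose, and 18 and 19 in labeled RNA at 4 and 8 µM.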
